A study of Mus musculus with 289 samples.

Results

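The cells described here are the suprabasal and upper follicle progeny of Lrig1 stem cells in unwounded mouse tail skin. A cell was a member when the mean z-score of 7 genes (Krt1, Krt10, Krtdap, Sbsn, Krt79, Klk10 and Cst6) exceeded its mean z-scores for a basal and bulge list, a cycling list and a sebaceous list. This held for 94 of the 274 cells kept of 289 deposited. The other 180 cells were 96 basal and bulge, 40 cycling and 44 sebaceous cells. The z-scores chose the members, so every difference between members and other cells in the genes scored or co-expressed with them is given as a description, without a test.

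Each library was 1 tdTomato-positive epidermal cell, sorted into a well and sequenced as full-length cDNA by a modified Smart-seq2 protocol. All mice carried Lrig1-EGFP-ires-CreERT2 and Rosa26-fl/STOP/fl-tdTomato on a mixed CBA and C57BL/6 background and were young adults. The Cre is expressed under the Lrig1 locus and becomes active with hydroxytamoxifen, given once to the skin, so that the cells which then expressed Lrig1, and their descendants, carry tdTomato. A tdTomato-positive cell therefore need not express Lrig1 at the time of sorting. The skin was then treated on alternate days with PRT4165, which inhibits the catalytic subunits of the Polycomb complex PRC1, Ring1A and Ring1B, or with its vehicle, and no group was wounded. The comparison asks what PRC1 inhibition alone does to these cells. There were 2 plates per treatment, holding 27 and 19 members in vehicle replicates 1 and 2, and 23 and 25 in PRT4165 replicates 1 and 2. A plate held 1 treatment, and which animals went to which plate was not given. The study describes independent experiments that each drew on several biological replicates, so a plate may hold cells of more than 1 animal, and p-values measure the spread between plates, which may be technical. Within a replicate, an effect of the plate and one of the drug cannot be told apart. The labels also carry a code, PR9 with vehicle and PR12 with PRT4165, which is not explained, and whatever it marks cannot be told apart from treatment either.

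In stratified epithelium, basal keratinocytes anchored to the basement membrane leave it to become suprabasal cells, which exchange keratins 5 and 14 for keratins 1 and 10, build desmosomes and then the cornified envelope and lipid barrier. The infundibulum and the junctional zone, in the upper hair follicle, follow the same course with their own keratins, among them keratin 79, and open to the surface beside the sebaceous duct. Lrig1 marks stem cells of this upper follicle, whose descendants normally remain in the upper follicle and sebaceous gland and enter the interfollicular epidermis after wounding.

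Estimated counts per member ranged from 12273 to 2669790 with a median of 504055, and the median member had 3423 genes detected, against 359192 counts and 3587 genes in the other cells. Reads carried no molecular identifiers. The Wilson intervals given below for shares of cells cover only the sampling of cells within a plate. Every well was a separate library and the highest correlation between any 2 cells was 0.946. The gap between a member's own list and the next list comes from the scores that chose the members. It is positive for each by the rule and describes the choice only. The median gap to the next list was 0.81, and 9 of 94 lay within 0.25 of it. The 3 members nearest the limit exceeded the next list by 0.00852, 0.0362 and 0.0612, and the 3 cells just outside stayed short of the next list, with gaps of -0.00104, -0.025 and -0.0405. The median z-score of members was 0.72 on their own list, -0.59 on the basal list, -0.37 on the cycling list and -0.16 on the sebaceous list.

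The promoters of markers of both ends of this class, and of the envelope gene Sprr1a, are shown here because these genes carry the contrasts that follow. The 250 bases before the start site were taken from RefSeq (GRCm38.p6), which held 5 of the 7 markers and 10 of the 12 leading genes described below. Capitals mark TATAAA, the AP-1 motif TGANTCA and the GATA motif AGATAA, searched on both strands, and AACCNGTT, the grainyhead motif, was found in none of these 15 promoters.
Krt10 (chr11:99389365-99389614, minus strand), the type I keratin of interfollicular suprabasal cells, Krtdap (chr7:30787655-30787904, plus strand), a secreted keratinocyte differentiation protein, Sbsn (chr7:30751221-30751470, plus strand), suprabasin, Krt79 (chr15:101940325-101940574, minus strand), the upper follicle keratin, and Sprr1a (chr3:92485882-92486131, minus strand), a cornified envelope precursor, read as follows.
Krt10: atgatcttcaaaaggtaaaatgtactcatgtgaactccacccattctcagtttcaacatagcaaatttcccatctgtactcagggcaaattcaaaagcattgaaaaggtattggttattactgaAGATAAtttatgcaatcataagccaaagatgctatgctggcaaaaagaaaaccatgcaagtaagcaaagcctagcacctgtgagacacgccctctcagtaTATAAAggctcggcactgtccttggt
Krtdap: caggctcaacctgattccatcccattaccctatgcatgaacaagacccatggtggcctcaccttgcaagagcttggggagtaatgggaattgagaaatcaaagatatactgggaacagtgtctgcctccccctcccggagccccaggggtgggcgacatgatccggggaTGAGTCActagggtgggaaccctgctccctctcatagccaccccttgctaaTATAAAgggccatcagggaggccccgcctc
Sbsn: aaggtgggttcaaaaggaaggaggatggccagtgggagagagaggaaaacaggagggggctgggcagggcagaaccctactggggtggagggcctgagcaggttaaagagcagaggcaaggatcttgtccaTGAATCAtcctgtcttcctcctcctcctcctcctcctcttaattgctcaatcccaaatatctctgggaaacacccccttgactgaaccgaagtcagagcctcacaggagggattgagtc
Krt79: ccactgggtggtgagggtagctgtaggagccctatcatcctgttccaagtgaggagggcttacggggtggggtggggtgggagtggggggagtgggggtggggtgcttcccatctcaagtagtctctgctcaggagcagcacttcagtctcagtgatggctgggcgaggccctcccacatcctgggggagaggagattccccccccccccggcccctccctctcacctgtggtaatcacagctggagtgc
Sprr1a: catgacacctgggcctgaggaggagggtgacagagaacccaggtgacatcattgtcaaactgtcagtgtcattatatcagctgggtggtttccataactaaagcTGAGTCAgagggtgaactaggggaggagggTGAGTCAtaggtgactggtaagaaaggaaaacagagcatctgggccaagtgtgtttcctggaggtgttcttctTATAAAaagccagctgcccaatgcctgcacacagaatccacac
TATAAA was present in 12.3% of 32536 promoters, TGANTCA in 6.73%, AGATAA in 9.97% and AACCNGTT in 1.79%. TATAAA lay 26 bases before the start of Krt10 and 30 before that of Krtdap. TGANTCA lay 81 bases before Krtdap, 119 before Sbsn and at a pair of places before Sprr1a. The Krt79 window held none of the 4 motifs. A match describes these letters only.

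All 7 markers were higher in members than in other cells on all 4 plates, as the rule fixed, but they did not mark the same members. Krtdap and Cst6, the latter encoding cystatin M/E, a cathepsin inhibitor of the cornifying layers, were detected in all 94 members, and Krt10 and Sbsn in 90 each. Krt79 was detected in 68 members, Krt1, the partner of keratin 10, in 39, and Klk10, a kallikrein protease, in 25. The shares were 41.5% of members and 7.78% of other cells for Krt1, 95.7% and 49.4% for Krt10, and 72.3% and 35% for Krt79. The other cells were not alike: in the 44 sebaceous cells Krt79 was detected in 86.4% and Krt10 in 75%. Every member had at least 3 of the 7 markers, 91 had 4 or more and 2 had all of them. Krt1 was detected without Krt79 in 20 members, Krt79 without Krt1 in 49, both in 19 and neither in 6.

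By plate, in the order vehicle replicates 1 and 2 and PRT4165 replicates 1 and 2, the mean log2(CPM + 1) of Krt10 in members was 12.10, 11.62, 10.95 and 13.14, against 2.62, 2.97, 3.96 and 5.34 in the other cells. CPM scales the counts of a gene by the non-mitochondrial total of the cell and is not corrected for gene length. Krt1 was more uneven, at 4.50, 2.73, 4.02 and 6.81 in members. Krt79 stood at 8.92, 9.25, 8.78 and 7.26. The PRT4165 replicate 2 plate thus had the highest Krt1 and Krt10 and the lowest Krt79 mean, and the treatments overlapped for Krt1 and Krt10, while both PRT4165 plates were below both vehicle plates for the cell means of Krt79. Krtdap was nearly level, at 13.31, 13.51, 13.32 and 13.71, while Cst6 was at 14.41, 13.85, 12.95 and 13.44.

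**Figure D1:**
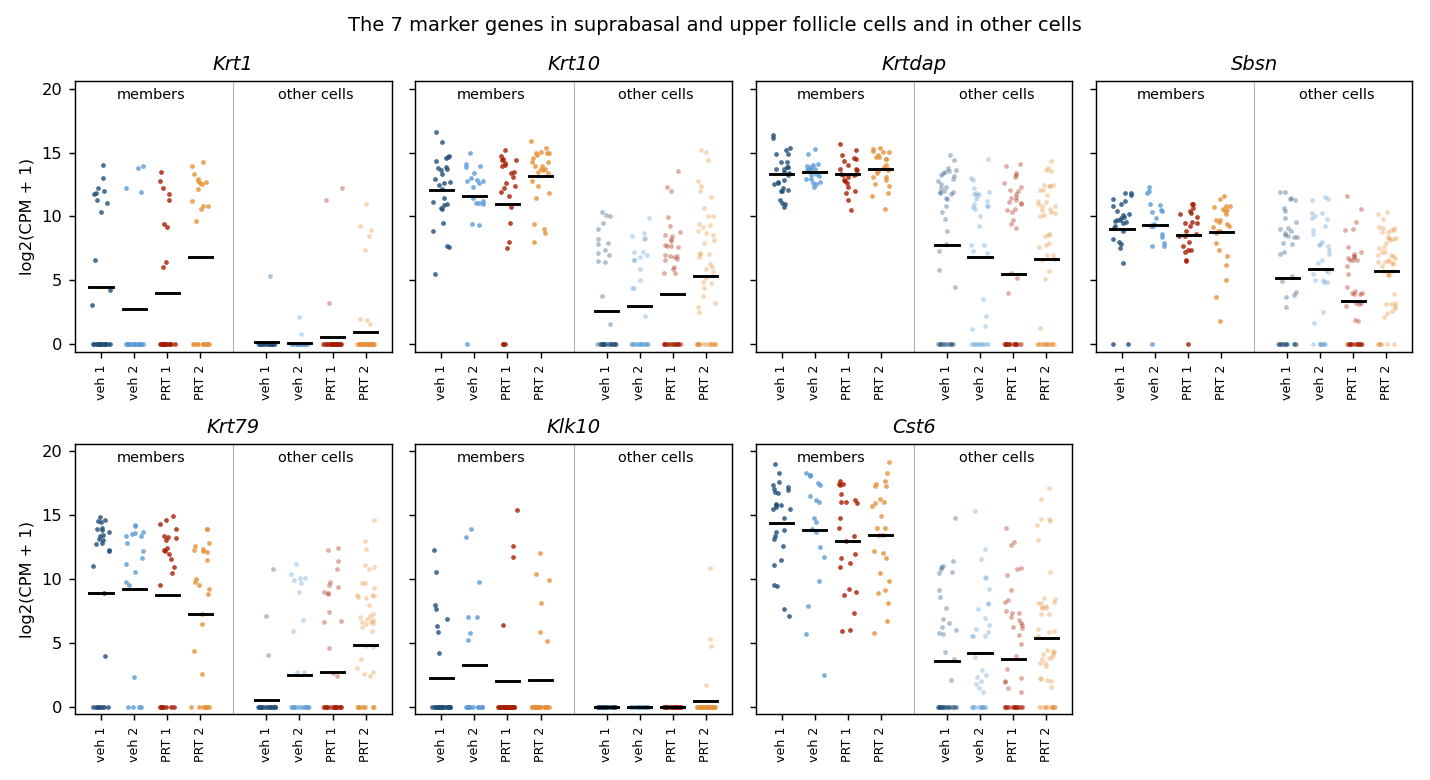
Each point is 1 cell, placed by its log2(CPM + 1) for 1 of the 7 marker genes, with members left and other cells right of the grey line and the plates in colour (veh, vehicle; PRT, PRT4165), and bars give the plate mean. Krtdap and Cst6 were above 0 in all 94 members, while Krt1 was at 0 in 55 of them and Klk10 in 69.

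Genes beyond the 7 markers also set the class apart. Of 9263 genes in at least 10% of kept cells, 223 (2.41%) were higher in members by more than 1 in mean log2(CPM + 1) on all 4 plates, and 189 (2.04%) were lower. The 12 genes with the largest difference were the beta-defensin Defb6, the calmodulin-like Calm4, Ly6g6c, the desmoglein Dsg1a, Sprr1a, the protease inhibitor Spink5, the retinol dehydrogenase-like Sdr16c6, the prostaglandin reductase Ptgr1, Pdzk1ip1, the stratum corneum chymotryptic kallikrein Klk7, Teddm3 and the glycolipid transfer protein Gltp. Only genes outside the scored lists and detected in at least 50% of members were ranked here. Defb6, an antimicrobial peptide gene, led the list. It was detected in 86 of 94 members and 73 of 180 other cells. Its mean log2(CPM + 1) in members was 13.08, 11.31, 13.004 and 13.44 by plate, against 2.21, 2.99, 3.07 and 3.60 in other cells, a mean difference of 9.74 with a range over plates of 8.32 to 10.87. Calm4 differed by 7.76 and was in 91 members. Its gap was the steadiest of the leading 3, from 7.28 to 8.0 over plates. Ly6g6c differed by 7.67, Dsg1a by 6.41 and Spink5, which inhibits kallikreins, by 6.03. Sprr1a was present in 62 members, with 20, 14, 10 and 18 cells by plate, and Klk7 in 56.

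Envelope and granular layer genes were divided within their list. Of 48 such genes, 41 were in the table and 15 in at least 10% of kept cells, and 8 of these were higher on all plates: Ivl, Sprr1a, Ppl, Scel, Calm4, Calml3, Dmkn and Krtdap, the last also a marker used by the rule. Scel, sciellin, was in 78 members and differed by 3.65, and Ivl, involucrin, was in 43 and differed by 2.76. Other genes of this list were detected in few members or none. Lor, loricrin, was detected in 7 members and 9 other cells, and Flg2, filaggrin 2, in 6 and 4, while Sprr2a1 and Sprr2d were at 0 in every member.

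Of 24 desmosome and junction genes detected at that level, 8 were higher, among them Dsg1a, Dsg1b, Dsc1, Jup, Pkp1, Dsp and Cldn1, and Gja1, connexin 43, was lower, while the rest did neither. Dsc1, the desmocollin of upper layers, was found in 68 members and 11 other cells, with member means of 5.50, 5.06, 5.33 and 4.99 and other-cell means of 0.12, 0.35, 0.44 and 0.25. No plate mean of the other cells came near those of the members. Gja1 was in 36.2% of members and 71.7% of other cells.

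Protease genes and inhibitors were both represented. Klk5, Klk7, Klk8 and Tmprss4 were higher among 14 proteases, and Spink5, Cstb, Serpinb3b, Serpinb5 and Serpinb12 among 12 inhibitors, of which Serpinb6a was lower. Serpinb3b was in 67 members and 16 other cells. It has closely similar neighbours in the Serpinb3 family, between which reads may be divided. For the lipid barrier, 9 of 25 genes were higher, including Elovl4, which extends very long chain fatty acids and was in 58 members and 15 other cells, Abca12, the lamellar body lipid transporter, in 52 and 27, and the ceramidase gene Acer1 in 63 and 34. Among transcription factors, 6 of 32 were higher, among them Grhl1, Klf3, Klf4, Cebpa and Zfp750, and Trp63, encoding the p63 regulator of basal cells, was lower. Zfp750, which acts in terminal differentiation, had member means of 6.13, 5.18, 6.59 and 4.63 and other-cell means of 1.22, 1.24, 1.51 and 1.74. Klf4 was in 85 members and differed by 3.15. Of the Notch genes, 1 of 13 was higher, the feedback regulator Nrarp. Among 24 PRC1 and PRC2 subunit genes, 0 were higher or lower by this measure, against 2.41% and 2.04% of all genes. Their median difference was -0.21, and that of all genes -0.21. The full list of 29 summed to 639, 490, 1077 and 740 CPM by plate in members. In other cells it summed to 1952, 932, 1586 and 968 CPM, higher on all 4 plates.

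Of 18 basal and hemidesmosome genes, 13 were lower in members on all plates, including Krt5, Krt14, Krt15, Itga6, Itgb4, Col17a1 and Trp63, of which the 3 keratins and Postn were also used by the rule. Col17a1, a hemidesmosome collagen, was in 39.4% of members and 87.2% of other cells and differed by -4.63. Further low genes were ranked only outside the scored lists and among genes detected in at least 50% of members. Of these the lowest was Fth1, ferritin heavy chain, at a difference of -5.88. S100a6 was at -4.81, the metallothionein Mt1 at -3.82, Nfib at -3.81, Ifitm2 at -3.67 and Hmgn2 at -3.35. Fth1 was in 50% of members and in 95% of other cells. Lrig1 itself was detected in 34 members (36.2%) and 63 other cells (35%), with member means of 2.04, 2.63, 2.09 and 1.32.

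Of 7 immune markers in the table, 2 reached 10% of kept cells, and Epcam, which keratinocytes of the follicle also express, was higher in members. The immune list, Epcam included, summed to between 129.3 and 446.8 CPM in members and between 79.6 and 216.6 CPM in other cells, higher in members on all 4 plates. Ptprc was in 6 members and 7 other cells. Of the fibroblast markers Pdgfra and Vim were at 0 in members, and the list summed to between 0.617 and 8.42 CPM by plate in members and 11.5 and 191.9 CPM in other cells. Krt18, Krt20 and Sox2 of the Merkel cell list were at 0. The melanocyte list summed to 69.8, 42.3, 91.8 and 4.22 CPM in members and 19.5, 37.9, 21.7 and 11.2 CPM in other cells, higher in members on 3 of 4 plates. Dct was in 11 members and 29 other cells. Pecam1, the only endothelial marker in the table, had counts in all 274 cells and so could not mark endothelial cells. The sebocyte list summed to between 349 and 733 CPM in members and 1168 and 6516 CPM in other cells. The part of these cells in the results was not tested.

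Within the class, several markers varied together, with Krt1 and Krt10 at one end and Krt79, Klk10 and Cst6 at the other. Krt1 and Krt10 went together over members (mean rank correlation over 4 plates 0.67), as did Krt79 and Cst6 (0.64) and Klk10 and Cst6 (0.62). Krt1 went against Krt79 (-0.56) and Cst6 (-0.56), with that sign on all 4 plates. Sbsn, listed with the interfollicular genes, went with Cst6 (0.63) and slightly against Krt1 (-0.22). Krtdap followed neither end closely, at 0.13 with Krt10, 0.08 with Sbsn, -0.12 with Cst6 and -0.03 with Klk10, with either sign among the plates, though at 0.41 with Krt1. These correlations, over 94 cells that share plates and were chosen on the same genes, are descriptions. When each member was labelled by the higher of its mean z-scores for Krt1, Krt10, Krtdap and Sbsn or for Krt79, Klk10 and Cst6, 52 cells were led by upper follicle markers and 42 by interfollicular markers. The cut divides a range, not types, and 20 members lay within 0.25 of it. The names of its sides refer to the markers, not to where a cell lay in the skin.

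**Figure D2:**
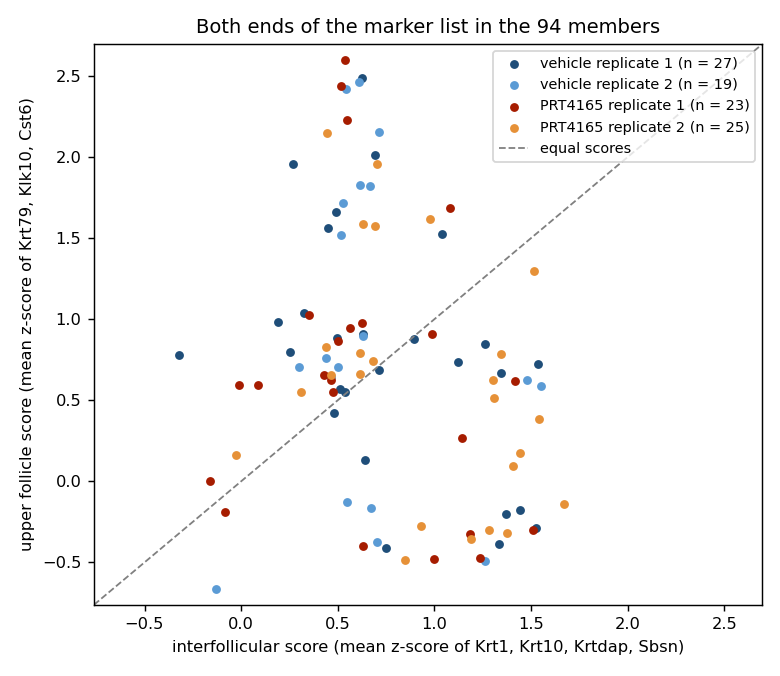
Each point is 1 of the 94 members, placed by its interfollicular score (mean z-score of Krt1, Krt10, Krtdap and Sbsn) and its upper follicle score (mean z-score of Krt79, Klk10 and Cst6), coloured by plate, with the dashed line where both are equal. The 52 cells above the line and the 42 below it come from all 4 plates.

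Genes outside the marker list also varied along this axis. Of 4881 genes detected in at least 25% of members, 513 (10.5%) had a rank correlation above 0 with the upper follicle minus interfollicular score on all 4 plates and 700 (14.3%) below 0. Among the 3 strongest toward the upper follicle end were Plet1 and Calhm5. Plet1, a surface antigen gene of the upper follicle and sebaceous duct, had a mean correlation of 0.68. It was detected in 43 of 52 upper follicle-led and 15 of 42 interfollicular-led cells, and its means were 7.81 and 2.53 on vehicle replicate 1, 7.56 and 0 on vehicle replicate 2, 6.28 and 0.54 on PRT4165 replicate 1, and 5.55 and 3.29 on PRT4165 replicate 2. Calhm5, a calcium homeostasis modulator family gene, was at 0.63, in 28 and 2 cells. Defb1 and Fbxo32 came next. These 4 genes had the higher mean in upper follicle-led cells on each plate, which their choice by correlation with the score favours.

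Toward the interfollicular end the 3 strongest were Mt4, Rpl14 and Degs1. Mt4, the metallothionein of stratified squamous epithelium, correlated at -0.69 and was in 7 upper follicle-led and 30 interfollicular-led cells. Its means in interfollicular-led cells were 6.97, 5.28, 7.46 and 7.84 by plate, and in upper follicle-led cells 0.77, 0, 0.47 and 0.84. These plate means did not overlap, but Mt4 was chosen for its correlation with the score that divides the cells, which favours such a gap. Degs1, the dihydroceramide desaturase, correlated at -0.65 and was in nearly all cells on both sides of the cut (47 and 41). Rpl14 was at -0.65, and the next 5 genes in this direction, Rps7, Rps23, Rpl24, Rpl39 and Rps12, all encode ribosomal proteins, an observation made after their values were seen. Rpl14 was in 51 of 52 and 42 of 42 cells, so that it was a matter of level, 9.68 ± 2.28 against 11.44 ± 0.91 (SD over cells).

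Of 24 upper follicle, infundibulum and sebaceous duct genes at that detection level, 12 went toward the upper follicle end on all plates, against 10.5% of all genes, among them Gata6, the sebaceous duct and upper follicle transcription factor, Plet1, Lrig1, Defb6, Defb1 and Sprr1a. Another 6 of this list went the other way, Slurp1, Slurp2, Aqp3, Ly6a, Ly6d and Klk8. Gata6 was detected in 30 of 52 upper follicle-led and 11 of 42 interfollicular-led cells and Lrig1 in 26 and 8. Slurp2, a secreted Ly6 protein of keratinocytes, was in 11 and 29. Ly6a, encoding Sca-1, by which the study sorted upper follicle cells in other experiments, was in 5 and 24. Krt77, below the detection minimum, was in 17 and 1 cells, and Krt2, the late suprabasal keratin, in 3 and 10. Among 13 immediate early genes, 7 went toward the upper follicle end (Fosb, Fosl2, Junb, Egr1, Egr2, Ier3 and Zfp36) and 0 toward the other, while of 12 heat shock genes 1 went toward the upper follicle end (Hspb1) and 5 the other way. PRC subunit genes gave 0 of 7 in either direction, against 10.5% and 14.3% of all genes.

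The 2 sides of the cut also differed in median mitochondrial share. The rule used that share only for its limit of 50% per cell. The median was 14.7, 16.7, 19.1 and 20.5% of counts in upper follicle-led cells and 24.8, 21.4, 24.5 and 27.0% in interfollicular-led cells by plate, the latter higher on 4 of 4 plates. Its part in the gene differences was not tested. Median counts were 336908, 699122, 499539 and 410480 in upper follicle-led and 194682, 496324, 537887 and 717593 in interfollicular-led cells, higher in upper follicle-led cells on both vehicle plates and lower on both PRT4165 plates.

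**Figure D3:**
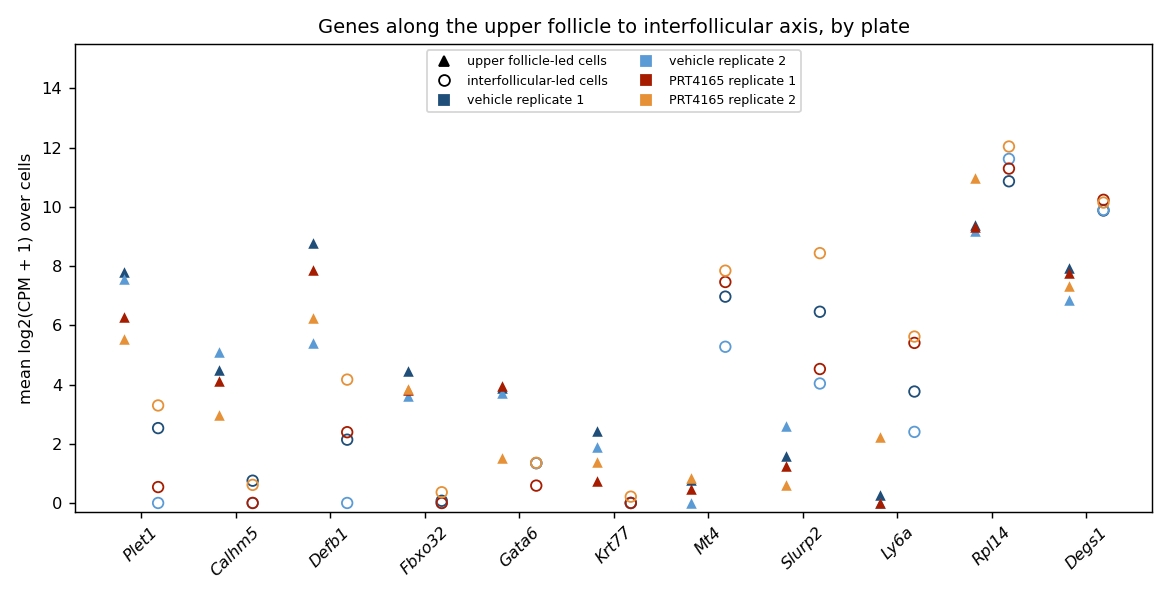
Mean log2(CPM + 1) of 11 genes in upper follicle-led cells (triangles) and interfollicular-led cells (open circles), 1 symbol per plate and plates in colour. Plet1, Calhm5, Defb1, Fbxo32, Mt4, Rpl14 and Degs1 were chosen by their correlation with the score that divides the cells. The plate means of Plet1, Calhm5, Defb1 and Fbxo32 are higher for the 52 upper follicle-led cells on each plate, and those of Mt4, Slurp2, Ly6a, Rpl14 and Degs1 for the 42 interfollicular-led cells.

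The share of cells in the class did not differ detectably between treatments. It was 38.6% (27 of 70 cells, Wilson 95% interval 28.05 to 50.3%) and 34.5% (19 of 55, 23.4 to 47.7%) with vehicle, against 31.9% (23 of 72, 22.3 to 43.4%) and 32.5% (25 of 77, 23.1 to 43.5%) with PRT4165. The means were 36.6 ± 2.85% and 32.2 ± 0.370% (SD, n = 2 plates), a difference of -4.35 percentage points (two-sided exact permutation test, p = 0.333, the smallest that 2 against 2 plates allow). Among cells with at most 25% mitochondrial counts the difference was 1.70, of the opposite sign. Upper follicle-led cells were 14 of 27, 12 of 19, 14 of 23 and 12 of 25 members, or 51.9, 63.2, 60.9 and 48%, so that the plates overlapped between treatments. Their difference was -3.07 percentage points (exact permutation test, n = 2 plates per treatment, p = 0.667) and it turned to 4.08 at the stricter mitochondrial limit, to 2.58 without vehicle replicate 2 and to 3.36 without PRT4165 replicate 2.

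**Figure D4:**
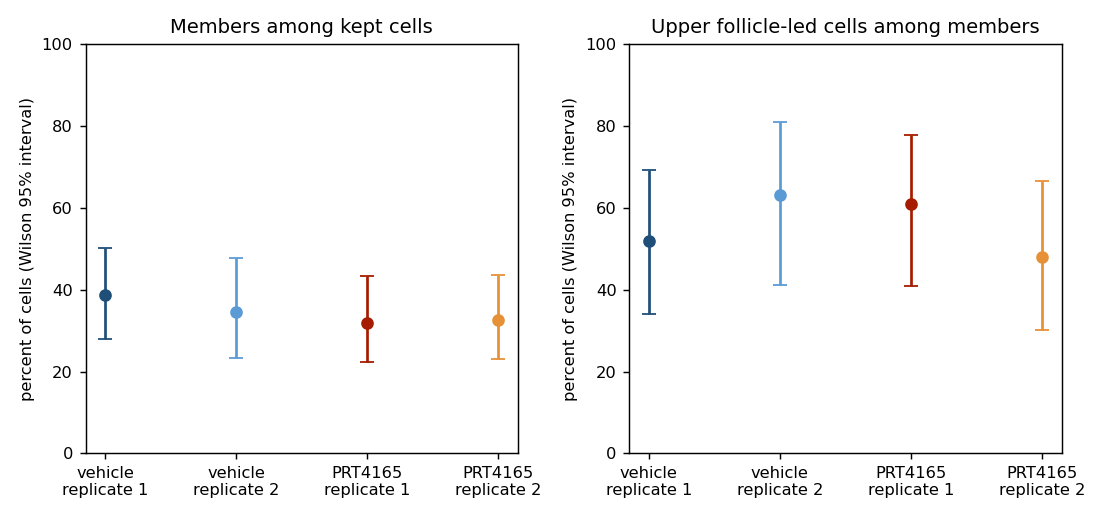
Left, members as a percentage of the kept cells of each plate, and right, upper follicle-led cells as a percentage of members, with Wilson 95% intervals. The member shares run from 31.9 to 38.6% and the upper follicle-led shares from 48 to 63.2%, and all intervals within a panel overlap.

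Library complexity was alike in range. The median number of genes per member was 3694 and 3390 with vehicle, and 3393 and 3463 with PRT4165 (difference -114, exact permutation test, n = 2 plates per treatment, p = 1). With each cell thinned to 20000 counts, which left out 2 shallower members, it was 2123, 1967, 1979.5 and 1799.5. Without vehicle replicate 1 the unthinned difference was 38. The median mitochondrial share of members was 17.5, 19.6, 22.0 and 23.2%, and that of other cells of the same plates 18.8, 24, 20.8 and 27.4%. Members were lower on 3 of 4 plates, by a mean of 2.17 percentage points (difference -2.17, SD 2.65, exact sign-flip permutation test over 4 plates, p = 0.25), a test that cannot go below 0.13 with 4 plates.

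No gene passed the test for a change with PRT4165 in these cells. Of 9897 genes tested on counts summed per plate, edgeR called 0 (0.0%) after Benjamini-Hochberg adjustment at 0.05, with 0.999 as the lowest adjusted p. Before adjustment 213 higher (2.15%) and 215 lower (2.17%) genes, 4.32% together, had a p under 0.05, and the median log2 fold change of all genes was 0.01. DESeq2 called 150 genes (1.52%), 72 higher (0.727%) and 78 lower (0.788%), on the same sums. The plates of a treatment differed widely, with a biological coefficient of variation of 97.5%. Both PRT4165 plates lay above both vehicle plates for 1498 genes (15.1%) and below them for 1542 (15.6%). In bulk sums of a class, fewer expressing cells and less RNA per cell cannot be told apart.

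The targets of the inhibitor were sparse in members. Ring1, encoding Ring1A, was detected in 10 members and Rnf2, encoding Ring1B, in 23. PRT4165 acts on the proteins, so that these levels do not check the treatment. The plate CPM of Ring1 was 0.198, 2.23, 0.80 and 0.144 and that of Rnf2 4.61, 1.96, 59.3 and 4.46, with 61% of the Rnf2 counts of PRT4165 replicate 1 from 1 cell. Both overlapped between treatments, at log2 fold changes of -1.35 (SE 1.91) and 3.27 (SE 1.54) with edgeR adjusted p = 0.999. Lrig1 was at 19.8, 17.7, 33.2 and 8.06 CPM (log2 fold change 0.14, SE 1.15, edgeR adjusted p = 0.999). Slc2a1, the glucose transporter, was at 26.0, 3.17, 14.1 and 0 CPM (-1.05, SE 2.22).

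Genes were named for treatment among those with non-overlapping plates, in at least 25% of members and with no single cell giving over 50% of the counts of a plate above 20 counts. Within these limits, those of smallest p above vehicle were Ptgs1, Clasp2, Dnttip2, Coq2, Srsf7, Mpc2, Syncrip and Npm1, each with edgeR adjusted p = 0.999. Ptgs1, cyclooxygenase 1, had plate CPM of 17.2 and 15.1 with vehicle and 55.3 and 128.9 with PRT4165 (log2 fold change 2.51, SE 0.90), and was detected in 11, 5, 11 and 18 members. Npm1, nucleophosmin, of the nucleolus, was the most widely detected after Clasp2, in 25, 16, 22 and 24 members, at 784 and 501 against 1519 and 1778 CPM (1.36, SE 0.54). Syncrip and Srsf7, both RNA-binding proteins of mRNA processing, stood at 119.95 and 98.4 against 317 and 331 CPM, and at 25.4 and 30.0 against 128.6 and 93.5 CPM. The plates of each treatment were close for these 2 genes. Clasp2, a microtubule plus-end protein gene, was more scattered, at 9.88 and 21.1 against 164.8 and 44.7 CPM, with 44.7% of the counts of PRT4165 replicate 1 from 1 cell. Mpc2, a subunit of the mitochondrial pyruvate carrier, and Coq2, of coenzyme Q synthesis, had log2 fold changes of 1.78 (SE 0.70) and 2.15 (SE 0.83).

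Within the same limits, those below vehicle were Slc36a4, Cwc27, Clint1, Tincr, Per3, Pcmt1, Bspry and Olfr374, also at edgeR adjusted p = 0.999. Tincr, a transcript known for its role in epidermal differentiation, had 21.2 and 9.45 CPM with vehicle and 1.31 and 2.16 with PRT4165, from 11, 6, 4 and 5 cells (log2 fold change -3.14, SE 1.41). Per3, a circadian clock gene, had 68.4 and 21.7 against 6.03 and 10.7 CPM from 19, 14, 13 and 15 cells (-2.43, SE 1.12). Slc36a4, an amino acid transporter gene, had 135.2 and 66.2 against 20.4 and 14.5 CPM, and Bspry 11 and 19.3 against 1.96 and 2.09 CPM from 10, 7, 3 and 4 cells. The values for Tincr and Bspry with PRT4165 rest on few cells. Among genes with deposited counts, Per3 and Syncrip overlap another on the same strand, and Pcmt1, Cwc27, Rnf2 and Lrig1 each overlap 1 on the other. Several named genes, Mpc2 and Olfr374 among them, also overlap annotated genes without deposited counts. Reads of these pairs may therefore not be fully separated.

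**Figure D5:**
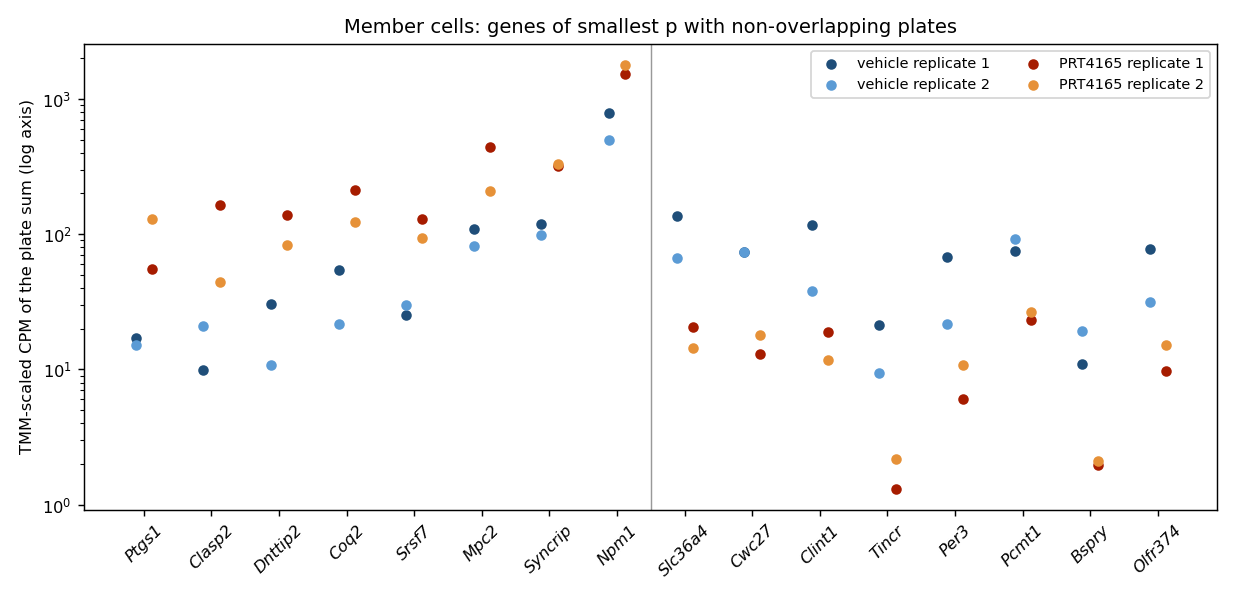
TMM-scaled CPM, on a log axis, of the counts summed over the members of each plate, for the 8 genes of smallest p with both PRT4165 plates above both vehicle plates (left of the line) and the 8 with both below, among genes in at least 25% of members of which no cell gave over 50% of a plate's counts above 20. The plates do not overlap by the choice of genes, and the edgeR adjusted p of each is 0.999.

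Gene groups gave 0 calls in either direction. Among the lists with at least 10 genes tested, the share of genes with non-overlapping plates ran from 1 of 18 immediate early genes to 8 of 17 basal genes, against 30.7% of all genes tested. Those basal genes include Krt14, Krt15 and Postn, which the rule also scored. The 7 class markers were all used by the rule, so their levels are given as a description, without a test. Of these, Krt10 alone did not overlap on summed counts, at 9239 and 5232 CPM with vehicle and 10929 and 17261 with PRT4165. Its cell means overlapped, and the markers whose cell means did not overlap (Sbsn, Krt79, Klk10 and Cst6, all lower with PRT4165) overlapped on summed counts. Of 31 envelope and granular layer genes, 4 lay above and 7 below, with a median log2 fold change of 0.04. Of 25 upper follicle genes 5 lay above (Slurp2, Slurp1, Ly6a, Fst and Sostdc1) and 5 below (Plet1, Atp6v1c2, Klk7, Krt17 and Teddm3), with a median of -0.04. Plet1 was at 384 and 342 against 268 and 140 CPM, and Ly6a at 43.7 and 23.2 against 73.7 and 211.6 CPM. Krt6a, Krt17 and Krt80 lay below among 8 further keratins. Krt17 was at 2262 and 5120 against 2086 and 1242 CPM (-1.15, SE 0.61), so that its nearest plates were close.

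Desmosome and junction genes gave 4 above and 6 below of 29, barrier lipid genes 7 and 3 of 31, differentiation transcription factors 5 and 6 of 33, and basal genes 4 and 4 of 17. Among 17 protease inhibitors 5 lay above and 2 below, with a median log2 fold change of 0.54. Stfa3, of the stefin A cystatins, was the farthest of these, at 198.7 and 52.2 against 2434 and 1399 CPM (3.93, SE 0.83, edgeR adjusted p = 0.999), and was named after its values were seen. It was in 9, 6, 9 and 16 members, 1 cell gave 65.9% of the counts of PRT4165 replicate 1, and closely similar stefin genes may share its reads. Of 24 PRC1 and PRC2 subunit genes 3 lay above (Pcgf2, Yaf2 and Kdm2b) and 3 below (Rybp, Ezh1 and Suz12), with a median of 0.50. That median turned negative without PRT4165 replicate 2 (-0.37), without the deepest member of each plate (-0.18) and with equal weight of cells (-0.06). Kdm2b, the demethylase subunit of a variant PRC1, was at 10.3 and 4.59 against 189 and 31.8 CPM (3.89, SE 1.18), with 81.1% of the counts of PRT4165 replicate 1 from 1 cell. Immediate early genes gave 0 above and 1 below of 18, and heat shock genes 2 and 3 of 13.

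When each member cell counted equally, limma called 1 of 9897 genes (0.0101%), Krt15, a keratin of basal and bulge cells. Its levels are given as a description, without a test, because the rule scored it. Its mean log2(CPM + 1) in members was 2.22 and 1.28 with vehicle and 4.50 and 6.72 with PRT4165, and it was detected in 8 of 27, 5 of 19, 12 of 23 and 23 of 25 of them. Both measures were higher on both PRT4165 plates. On summed counts it was at 86.8 and 162.96 against 180 and 331 CPM, with 98.5% of the counts of vehicle replicate 2 from 1 cell. In the other cells its means were 10.72, 9.01, 9.29 and 9.28.

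A change that differed between members and the other cells was not found for any gene. The make-up of the other cells was not the same on the plates. By plate, in the order used above, sebaceous cells were 5.71, 9.09, 16.7 and 29.9% of kept cells. Basal and bulge cells were 47.1, 41.8, 30.6 and 23.4%. A sum over the other cells mixes make-up with expression, and the part of make-up was not tested. Of 12478 genes tested with limma on the per-plate differences between both sums, 0 (0.0%) passed after adjustment, the lowest adjusted p being 0.907, while 264 were higher (2.12%) and 399 lower (3.2%) at an unadjusted p under 0.05, 5.31% together. Bspry had the smallest unadjusted p of the 16 genes named for treatment (difference of changes -6.38, SE 1.31, limma adjusted p = 0.907).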

How the data were processed

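The authors quantified reads with Salmon 0.13.1 against the mouse transcriptome (builds mm10 and GRCm38 in the submitters' processing notes, which also name R 4.0.3 and Seurat) and deposited unscaled estimated counts for each gene in each cell (18.3% of nonzero values were fractional). Column names tied all 289 cells to their sample titles. Cells with over 50% mitochondrial counts were removed (15), and none had under 1000 genes. AC in the vehicle labels was read as the vehicle, and the PR9 and PR12 codes beside the treatments are not explained. No doublet caller was run, since 1 cell was sorted per well. Scores used log2(CPM + 1) without mitochondrial genes, z-scored over kept cells.

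Members' counts were summed per plate, rounded, filtered (filterByExpr), TMM-scaled and tested by quasi-likelihood F-tests in edgeR 4.0.16 (R 4.3.3, Benjamini-Hochberg, threshold 0.05). The difference between classes used limma 3.58.1 on per-plate log2 CPM (prior count 2), and DESeq2 1.42.0 was an alternative. Scripts were tested on simulated data with less variation between plates than these data had, which does not measure what could be detected here. The named genes were the 7 markers, the 12 with the largest member excess (outside the lists, in at least 50% of members), the 8 of smallest p each way (non-overlapping plates, in at least 25% of members, no cell over 50% of a plate's counts above 20), the 3 strongest along the axis each way, and Ring1, Rnf2, Lrig1 and Slc2a1, with members of the gene lists by their counts. The lowest genes in members were ranked within the same limits as the 12 with the largest member excess. Members and lists were chosen with earlier results of these data known. The labels give the same batch tag to replicates of equal number, so the numbers pair the plates, while their deviations from the group means correlated at 0.05 over 9897 genes. Some genes are not reported here. Several cell-type markers were not analysed here.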

Additional observations from a re-analysis of the deposited data

How the results depend on the processing

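The count of 0 genes changed with PRT4165 stayed at 0 with RLE normalization, without the low-count filter, without mitochondrial genes, at 25% mitochondrial counts, at a margin of 0.25, without the deepest member of each plate, in upper follicle-led or interfollicular-led members alone (added after seeing the data) and without each plate in turn (range 0 to 0). It was 150 with DESeq2 and 1 (Krt15, scored by the rule) with equal weight of cells. With the replicate block (plates paired by number) it was 0, and the block changed no other call. The count of genes whose change differed from other cells was 0 in every alternative run, leave-one-out included. The share difference of -4.35 became 1.70 at 25% mitochondrial counts and ranged from -6.37 to -2.34 without a plate. The difference in median genes of -114 became 58.5 at 25% mitochondrial counts and 26 at a margin of 0.25, and ranged from -266 to 38 without a plate. The upper follicle-led difference of -3.07 became 4.08 at 25% mitochondrial counts and ranged from -9.50 to 3.36 without a plate. The mitochondrial share difference ranged from -3.28 to -1.44. Ring1 turned to 1.19 without vehicle replicate 2 and ranged from -2.98 to 1.19 without a plate. Lrig1 turned to -0.19 with the replicate block, -0.46 without the deepest members, -0.60 with equal weight, -0.72 in interfollicular-led members and ranged from -1.21 to 0.81 without a plate. Slc2a1 turned to 0.84 at 25% mitochondrial counts, 0.73 without the deepest members and ranged from -10.74 to 1.16 without a plate. The cause was not tested. Of 297 values of named genes under alternatives, 288 kept their direction and side of the threshold, and of 369 list medians 69 moved by more than the spread. Most of the genes counted here were chosen for plates that did not overlap, which favours a kept direction. None passed the threshold in the main fit, so the 288 do not measure robustness. With 2 plates per treatment and 19 to 27 members each, the number of plates and cells limits what can be detected.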
